A study of Mus musculus with 3 samples.

Results

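The messenger RNA levels of 10 genes that regulate splicing, transcription and membrane traffic in epithelial cells were compared between 3 mouse tumour cell lines. The members are Esrp1, Esrp2, Grhl1, Grhl2, Ovol1, Ovol2, Elf3, Ehf, Klf5 and Rab25, taken by symbol from the deposited tables, and all 10 were found among the 15529 genes that carry a symbol in any table. B16-F1 cells came from a skin melanoma of strain C57BL/6J and were cultured in DMEM with serum. Cloudman S91 cells also came from a skin melanoma, of strain DBA, and had the same medium, whereas 4T1 cells came from a mammary carcinoma of strain BALB/cfC3H and were cultured in RPMI with serum. No line carried a treatment or an engineered allele in the labels. Tumour type, strain and medium therefore cannot be told apart in any difference between 4T1 and the melanoma lines. Strain and tumour of origin likewise cannot be told apart in any difference between B16-F1 and Cloudman S91. Each line was measured in 1 library, so no difference below has a replicate check and no test was made.

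ESRP1 and ESRP2 are RNA-binding proteins that set the epithelial choice of alternative exons in many transcripts, among them those of the receptor Fgfr2 and the adhesion molecule Cd44. Grainyhead-like factors (GRHL) and Ovo-like zinc finger factors (OVOL) activate or protect epithelial gene expression, and OVOL proteins repress Zeb1, whose product in turn represses ESRP genes and E-cadherin. ELF3 and EHF are ETS-family factors of epithelia, KLF5 is a Krüppel-like factor of dividing epithelial cells, and RAB25 is an epithelial GTPase of the recycling endosome. In mammary epithelium these genes are known for luminal and junctional programmes, and melanocytes, which arise from the neural crest, are not epithelial cells.

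The tables summed to between 7412840 and 9098072 expected counts (estimated reads per gene), and the named genes listed in a table had a median of 8.30 to 8.98 FPKM (fragments per kilobase of transcript, scaled to the library total). The lines bore the markers of their labels. All 8 melanocyte markers reached FPKM 1 in B16-F1 and in Cloudman S91, summing to FPKM 10515 and 9149, and all 8 epithelial markers did so in 4T1, with a sum of 1968. The epithelial markers summed to 0.51 in B16-F1 and 2.83 in Cloudman S91, where only Cdh1 (2.21) passed FPKM 1. The melanocyte markers summed to 7.08 in 4T1, from Tyr (5.74), Mitf (1.23) and Pmel (0.11), while Dct, Tyrp1, Mlana, Sox10 and Slc45a2 were not listed. Tyr did not separate 4T1 from Cloudman S91, where it had 4.99. Immune and endothelial markers summed to 0.95 or less in every line.

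Promoter sequences are shown for Elf3, Ovol2 and Rab25, which were expressed in 4T1 and were at or near 0 in both melanoma lines. RefSeq windows of build GRCm38.p6, from 250 bases before to 50 bases after a transcription start, matched 4 of the 10 members, and the fourth, Grhl1, has a pair of windows. Each is printed 5′ to 3′ on the strand of the gene, and capitals mark the E-box CACCTG or its reverse complement CAGGTG, the letters that ZEB and SNAI repressors are known to bind.
Elf3, chr1:135258423-135258722, minus strand: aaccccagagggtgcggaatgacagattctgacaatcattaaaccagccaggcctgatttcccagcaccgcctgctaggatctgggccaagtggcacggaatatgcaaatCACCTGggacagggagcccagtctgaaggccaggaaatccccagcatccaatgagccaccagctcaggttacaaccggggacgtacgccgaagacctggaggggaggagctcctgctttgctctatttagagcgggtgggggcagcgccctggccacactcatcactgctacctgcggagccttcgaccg
Ovol2, chr2:144331313-144331612, minus strand: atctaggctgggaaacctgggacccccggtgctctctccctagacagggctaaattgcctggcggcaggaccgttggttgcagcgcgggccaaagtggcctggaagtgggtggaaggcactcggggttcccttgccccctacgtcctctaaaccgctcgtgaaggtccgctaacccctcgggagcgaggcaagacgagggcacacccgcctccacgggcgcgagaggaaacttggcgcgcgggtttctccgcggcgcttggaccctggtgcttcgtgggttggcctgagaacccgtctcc
Rab25, chr3:88548230-88548529, minus strand: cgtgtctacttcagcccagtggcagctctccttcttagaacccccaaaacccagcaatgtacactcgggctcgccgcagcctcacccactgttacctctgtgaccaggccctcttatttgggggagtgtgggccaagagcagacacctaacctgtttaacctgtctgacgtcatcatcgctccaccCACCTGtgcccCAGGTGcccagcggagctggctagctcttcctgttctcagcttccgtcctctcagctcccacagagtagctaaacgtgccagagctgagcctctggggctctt

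The Elf3 window holds 1 E-box, which begins 140 bases before the start site, and the Rab25 window holds 2 on opposite strands, beginning 64 and 53 bases before it. The Ovol2 window and both Grhl1 windows hold none. On the minus strand the Ovol2 window reaches only to 144331612, whereas the listed end of the gene is 144332080. It therefore covers an internal start and not the 5′ end of the gene. Of all 32851 RefSeq windows of this length, 20.2% hold the E-box on either strand. The relaxed grainyhead motif AACNNGTT was found in the Rab25 window, 102 bases before the start, and in 4.2% of all windows. The strict form AACCGGTT (0.146% of all windows) and the OVOL motif CCGTTA (2.76%) were in no member window. The ETS motif AGGAAG was in windows of Grhl1 and Rab25 (35.4% of all), the Krüppel-like motif CCACCC in windows of Elf3, Grhl1, Ovol2 and Rab25 (31.5%), and its variant GGGNGGG in windows of Elf3 and Grhl1 (48.1%). In the Elf3 window both Krüppel-like motifs lie on overlapping letters, and in the Rab25 window CCACCC shares 1 base with the first E-box. A match describes the letters of a window and not binding.

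In 4T1 all 10 members were listed and 8 reached FPKM 1, against 0 of 10 in B16-F1 and 1 of 10 in Cloudman S91. Among all named genes 68.0% reached FPKM 1 in 4T1, 67.4% in B16-F1 and 67.8% in Cloudman S91. The median FPKM of the 10 members was 8.24 in 4T1, beside 0.035 in B16-F1 and 0.09 in Cloudman S91. In such bulk RNA, fewer cells of a type and less RNA per cell cannot be told apart. The 10 genes together held 1852 counts in 4T1 and 14 in B16-F1. They held 167 in Cloudman S91, all but 27 of them from Klf5.

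**Figure D1:**
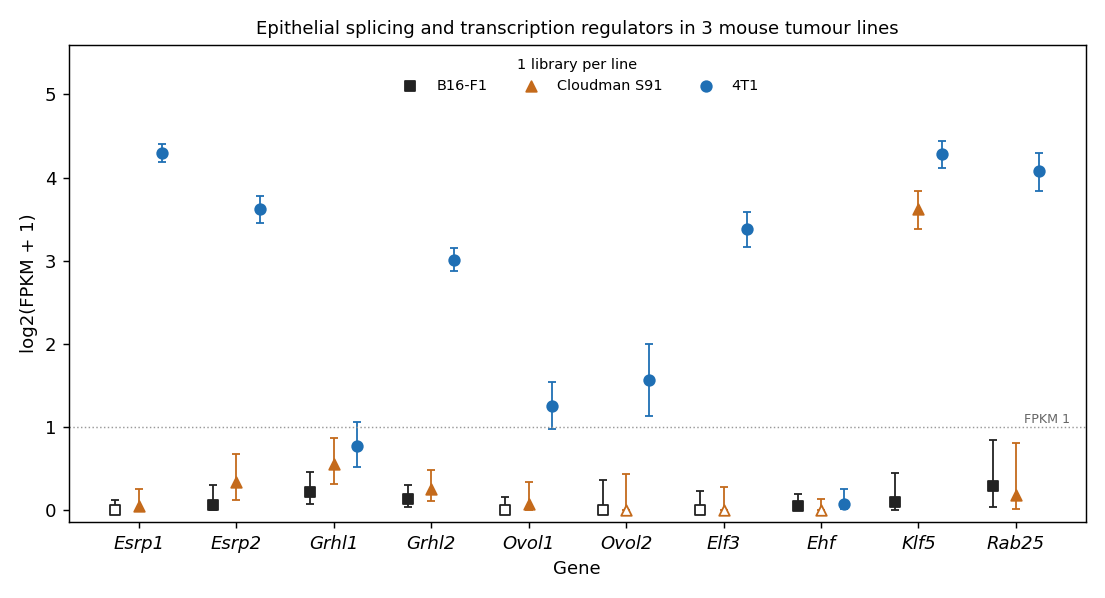
Level of each member in log2(FPKM + 1) (vertical axis) for B16-F1 (squares), Cloudman S91 (triangles) and 4T1 (circles), 1 library per line. Bars are exact 95% Poisson intervals, open symbols are genes that a table does not list (bar up to 3 counts). 4T1 is far above both melanoma lines for Esrp1, Esrp2, Grhl2, Elf3 and Rab25, Klf5 is also high in Cloudman S91, and Grhl1 and Ehf are low in every line.

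Of the 3 lines, 4T1 alone had Esrp1 and Esrp2 at FPKM 1 or more. Esrp1 (chromosome 4, 11331933 to 11386783) had FPKM 18.6 in 4T1 (622 counts, exact 95% Poisson interval 17.1 to 20.1), 0.03 in Cloudman S91 (1 count) and was not listed in B16-F1, where 3 counts would be FPKM 0.084. Its level in 4T1 was at least 211-fold above B16-F1, and the ratio to Cloudman S91 was 540, with an exact counting interval of 96.5 to 21351. Esrp2 (chromosome 8, 106130319 to 106137193) had 11.3 in 4T1 (266 counts, 9.99 to 12.7), 0.26 in Cloudman S91 (5 counts) and 0.04 in B16-F1 (1 count). The ratio of 4T1 to B16-F1 was 271 (48.3 to 10757) and that to Cloudman S91 was 44.2 (18.7 to 137). 4T1 therefore listed both ESRP genes at levels whose intervals do not meet those of the melanoma lines. Within 4T1, Esrp1 was 1.64-fold above Esrp2 per length (1.42 to 1.90) and made up 62.1% of their summed FPKM of 29.9. In 4T1, 67.7% of the listed named genes lay below Esrp1 and 55.5% below Esrp2, so both were of moderate abundance.

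Of the grainyhead factors, Grhl2 separated the lines and Grhl1 did not do so clearly. Grhl2 (chromosome 15, 37232821 to 37363569) had FPKM 7.07 in 4T1 (310 counts, 6.31 to 7.91), 0.19 in Cloudman S91 (7 counts) and 0.09 in B16-F1 (4 counts). The ratio was 78.9 against B16-F1 (30.5 to 291) and 36.7 against Cloudman S91 (17.6 to 92.1). Grhl1 (chromosome 12, 24572232 to 24617391) had 0.70 in 4T1 (20 counts, 0.426 to 1.08), 0.47 in Cloudman S91 (12 counts, 0.243 to 0.822) and 0.16 in B16-F1 (5 counts, 0.052 to 0.373). The intervals of 4T1 and Cloudman S91 overlap, with a ratio of 1.48 (0.690 to 3.33), and the ratio of 4T1 to B16-F1 was 4.36 (1.59 to 14.9). In 4T1, Grhl2 was 10.1-fold above Grhl1 per length (6.46 to 16.8). Grhl3, the remaining grainyhead-like gene, had 0.16 in 4T1 (4 counts) and 0.08 in B16-F1 (2 counts), and was not listed in Cloudman S91.

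The Ovo-like genes were detected at low levels in 4T1. Ovol1 (chromosome 19, 5549137 to 5560575) had FPKM 1.38 in 4T1 (35 counts, 0.958 to 1.91), 0.05 in Cloudman S91 (1 count) and was not listed in B16-F1. It was at least 11.9-fold higher in 4T1 than in B16-F1, and 29.1-fold higher than in Cloudman S91 (4.89 to 1182). Ovol2 (chromosome 2, 144305175 to 144332080) had 1.95 in 4T1 (20 counts, 1.18 to 2.99) and was listed in neither melanoma line. Taken at 1.95, its level was at least 6.90-fold above B16-F1 and at least 5.63-fold above Cloudman S91. In those libraries 3 counts are already FPKM 0.283 and 0.347. These bounds leave out the counting error of the 4T1 level. The 4T1 levels of Ovol2 and Ovol1 did not differ beyond counting error (ratio 1.41, 0.770 to 2.51). Ovol3 had 1 count in 4T1 and 1 in B16-F1, and was not listed in Cloudman S91.

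The ETS factors Elf3 and Ehf, which share the epithelial-specific branch of the family, behaved unlike each other in 4T1. Elf3 (chromosome 1, 135253574 to 135258472) had FPKM 9.40 in 4T1 (160 counts, 7.99 to 11.0) and was listed in neither melanoma line, which makes 4T1 at least 54.6-fold above B16-F1 and at least 44.5-fold above Cloudman S91. Ehf (chromosome 2, 103263431 to 103303275) had 0.05 in 4T1 (2 counts) and 0.03 in B16-F1 (1 count), and was not listed in Cloudman S91. No library held more than 3 counts of Ehf, so no fold is given, and a difference between the lines was not detectable at this depth. In 4T1 the ratio of Elf3 to Ehf was 182 per length (49.6 to 1516). Elf5, the mammary alveolar member of the ETS family, was likewise at 0.05 in 4T1, 0.16 in B16-F1 and 0.07 in Cloudman S91, and Spdef was listed in no table.

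Klf5 was the 1 member that reached FPKM 1 in a melanoma line. Klf5 (chromosome 14, 99298691 to 99313412) had FPKM 18.5 in 4T1 (276 counts, 16.4 to 20.8), 11.3 in Cloudman S91 (140 counts, 9.45 to 13.3) and 0.07 in B16-F1 (1 count, up to 0.365). Cloudman S91 thus lay near 4T1 and far from the other melanoma line. The ratio of Cloudman S91 to B16-F1 was 172 (30.3 to 6828), whereas that of 4T1 to Cloudman S91 was 1.65 (1.34 to 2.03), and that of 4T1 to B16-F1 was 282 (50.3 to 11196). The difference of 4T1 minus Cloudman S91 depended on the scaling, at 0.67 in log2(FPKM + 1) and 0.25 in log2(TPM + 1). In Cloudman S91 58.1% of the listed named genes lay below Klf5, and every other member there was at FPKM 0.47 or less.

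Rab25 (chromosome 3, 88542029 to 88548279) had FPKM 15.85 in 4T1 (141 counts, 13.3 to 18.6), 0.22 in B16-F1 (2 counts) and 0.13 in Cloudman S91 (1 count). The ratio of 4T1 was 72.6 against B16-F1 (19.7 to 605) and 118 against Cloudman S91 (20.9 to 4711). Its close relative Rab11a, a broadly expressed GTPase of the same recycling compartment, had 36.1 in 4T1, 37.05 in B16-F1 and 28.3 in Cloudman S91. Within 4T1 Rab11a was 2.29-fold above Rab25 (1.91 to 2.76).

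Ordered by FPKM in 4T1, Esrp1 came first, followed by Klf5, Rab25, Esrp2, Elf3, Grhl2, Ovol2, Ovol1, Grhl1 and Ehf. Counting error does not separate Esrp1 from Klf5 (ratio 1.01, 0.871 to 1.16), Klf5 from Rab25 (1.17, 0.954 to 1.45) or Esrp2 from Elf3 (1.2, 0.986 to 1.47). It does separate Rab25 from Esrp2 (1.39, 1.13 to 1.72), Elf3 from Grhl2 (1.33, 1.09 to 1.61), Grhl2 from Ovol2 (3.65, 2.32 to 6.06), Ovol1 from Grhl1 (1.97, 1.11 to 3.60) and Grhl1 from Ehf (13.5, 3.29 to 119).

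Genes at FPKM 1 or more in either line were called when log2(FPKM + 1) differed by 2 or more, which is 4-fold on that scale. By this size rule 6 of the 10 members were higher in 4T1 than in B16-F1. None could be called lower, since the highest member in B16-F1 was at FPKM 0.22. Every member that passed the FPKM filter here did so by its 4T1 level. Of all 11547 genes compared, 7.43% were higher in 4T1, 6.31% were higher in B16-F1 and 13.7% were called in either direction. In TPM the split of all genes was 7.53% against 9.84%. The 6 were Esrp1 (difference 4.29), Klf5 (4.19), Rab25 (3.79), Esrp2 (3.57), Elf3 (3.38) and Grhl2 (2.89). Ovol2 (1.56), Ovol1 (1.25), Grhl1 (0.55) and Ehf (0.03) were not called, and only Grhl1 and Ehf of these failed the FPKM filter. The median difference over all 10 members was 3.13 in log2(FPKM + 1), beside -0.03 over the genes compared. With a pseudocount of 5 only Esrp1 and Klf5 kept their calls, since this scale compresses genes of low level.

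Against Cloudman S91, 5 of the 10 members were higher in 4T1 and none was lower, beside 8.01% of the 11657 genes compared that were higher in 4T1, 7.47% that were higher in Cloudman S91 and 15.5% in either direction. In TPM that split was 7.67% against 11.5%. Of the members only Klf5 could be called lower, since every other member in Cloudman S91 was at FPKM 0.47 or less. Apart from Klf5, each member that passed the FPKM filter did so by its 4T1 level. Esrp1 (4.25), Rab25 (3.90), Elf3 (3.38), Esrp2 (3.29) and Grhl2 (2.76) were called. Ovol2 (1.56), Ovol1 (1.18), Klf5 (0.67), Grhl1 (0.21) and Ehf (0.07) were not. The median difference over the 10 members was 2.16, beside 0.14 over the genes compared. Both comparisons use the same 4T1 library. With a pseudocount of 5 only Esrp1 and Rab25 kept their calls.

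Between the melanoma lines, Klf5 was the 1 member called, with a difference of 3.52 in favour of Cloudman S91, and 3.19% of the 11133 genes compared were called in that direction, 2.33% in the opposite one and 5.52% in either. The other 9 members lay between -0.34 (Grhl1) and 0.11 (Rab25) in B16-F1 minus Cloudman S91, where all of them were under FPKM 1 in both lines. The Klf5 call was lost with a pseudocount of 5.

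**Figure D2:**
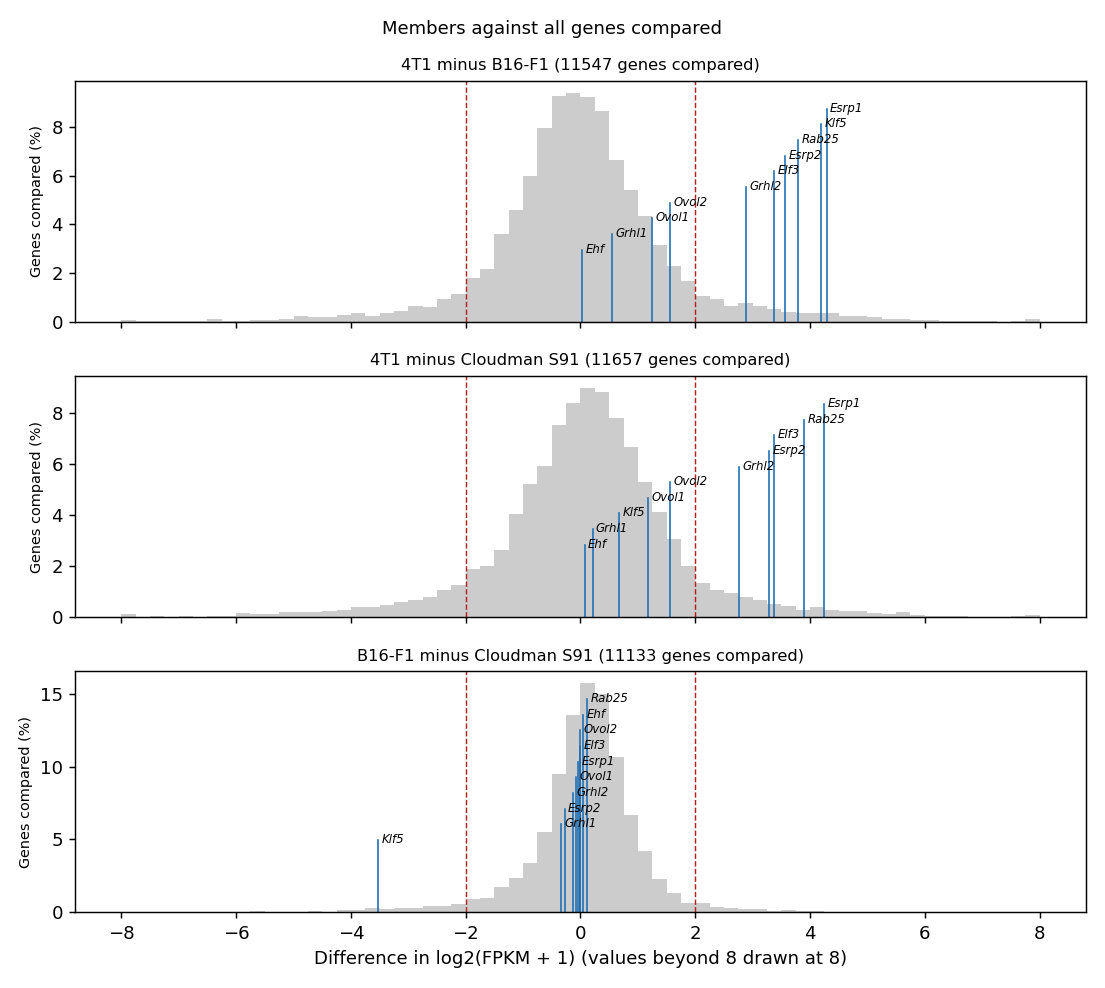
Difference in log2(FPKM + 1) (horizontal axis) for each member (blue lines, labelled, their heights only separating the names) over the share in percent of all genes compared (grey), for 3 pairs of lines. Dashed lines mark a difference of 2 in either direction, which 6, 5 and 1 members pass from top to bottom.

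Of 20 relatives (other grainyhead, Ovo-like, ETS and Krüppel-like factors, and the RAB11 genes) 19 were in a table. None was higher in 4T1 by the size rule in either comparison, beside 7.43% (B16-F1) and 8.01% (Cloudman S91) of all genes compared. Only 1, Klf15, was higher in both melanoma lines, beside 6.31% (B16-F1) and 7.47% (Cloudman S91) of all genes. With a list of this size, these counts are not read as differing from those shares. Their median difference was 0.00 for 4T1 minus B16-F1 and -0.08 for 4T1 minus Cloudman S91. Klf15 had FPKM 10.4 in B16-F1, 10.95 in Cloudman S91 and was not listed in 4T1, at least 69.6-fold lower than in B16-F1 and at least 73.05-fold lower than in Cloudman S91. Klf4, another epithelial Krüppel-like factor, had 5.32 in 4T1, 1.17 in Cloudman S91 and 0.77 in B16-F1, with ratios of 6.94 (4.37 to 11.6) and 4.57 (2.99 to 7.23) for 4T1 over B16-F1 and Cloudman S91, and was not called on the log2(FPKM + 1) scale. Klf7 went the other way, with 5.33 in Cloudman S91, 2.39 in B16-F1 and 0.61 in 4T1, and was not called.

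Of 17 genes of the recycling endosome and partners of RAB25, 2 were higher in 4T1 than in B16-F1 and 3 higher than in Cloudman S91. Over all genes the shares higher in 4T1 were 7.43% and 8.01%, and those lower were 6.31% and 7.47%. With a list of this size, the counts are not read as differing from these shares. Myo5a, the myosin that carries melanosomes, was called lower in 4T1 in both comparisons, with FPKM 11.7 in 4T1, 64.3 in Cloudman S91 and 91.4 in B16-F1. Its listed length, by which FPKM divides, was 5665 bases in Cloudman S91, 11622 in B16-F1 and 11718 in 4T1, so the FPKM gap to Cloudman S91 depends on unequal lengths. Its counts were 2682 in Cloudman S91 and 1224 in 4T1. Rab11fip5, an effector of RAB11 proteins, had 29.9 in 4T1, 2.06 in Cloudman S91 and 0.30 in B16-F1. Rab11fip1, which binds RAB25, had 9.51 in 4T1, 2.04 in B16-F1 and 0.03 in Cloudman S91, and was called against Cloudman S91. Myo5c, an epithelial class V myosin, had 6.24 in 4T1, 0.18 in Cloudman S91 and 0.03 in B16-F1, and was called in both comparisons. The median differences of this list were 0.03 and 0.23.

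**Figure D3:**
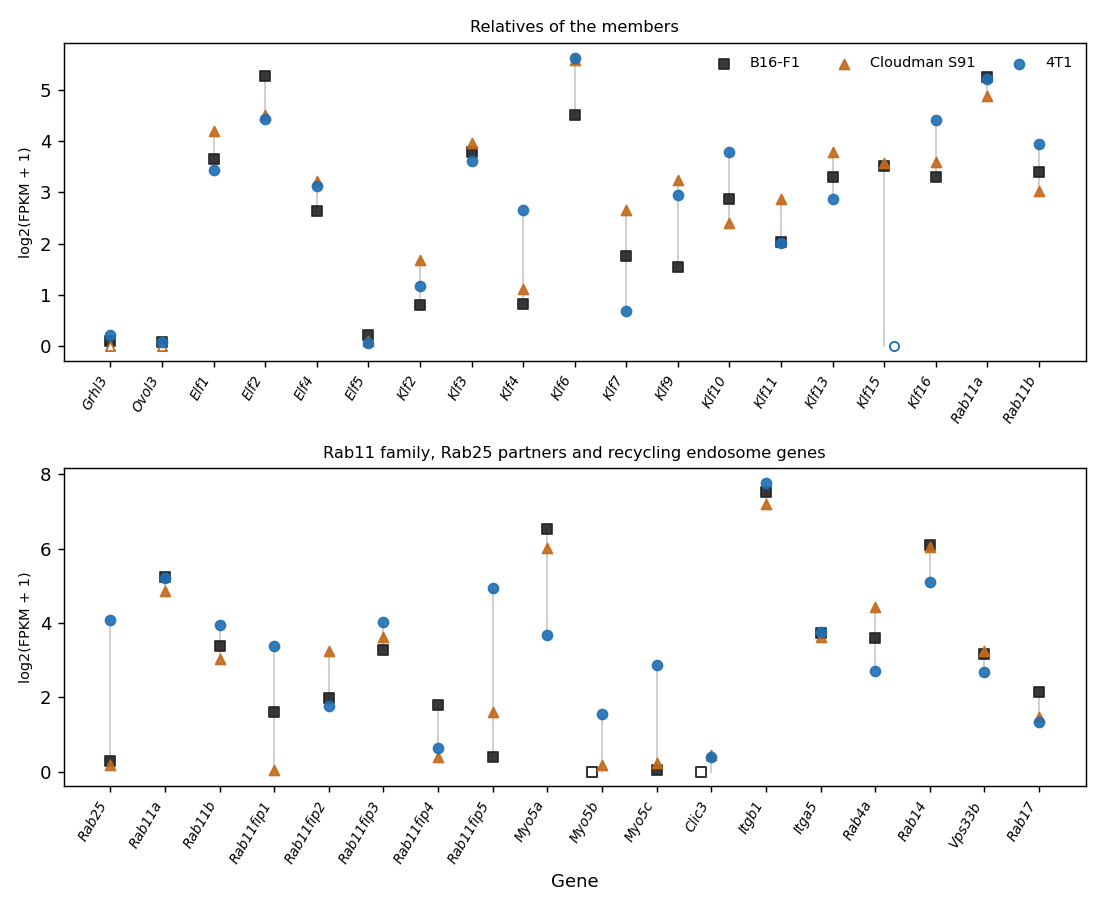
Levels in log2(FPKM + 1) (vertical axis) of relatives of the members (upper panel) and of Rab25 with the recycling endosome genes (lower panel) in B16-F1 (squares), Cloudman S91 (triangles) and 4T1 (circles). Open symbols are genes not listed, and grey lines span the 3 lines. Rab25 shows a wide gap between 4T1 and the melanoma lines, whereas Rab11a has like levels in all 3.

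Of 24 epithelial genes linked to grainyhead factors in mammalian cells, 20 were higher in 4T1 than in B16-F1. Against Cloudman S91, 19 were higher, and none was lower in either comparison. Over all genes compared the shares higher in 4T1 were 7.43% and 8.01%. Of the 24, only 1 reached FPKM 1 in B16-F1 and 3 in Cloudman S91, so few could be called lower in 4T1. Their median differences were 3.79 and 3.57. Spint2, a protease inhibitor, had FPKM 279.65 in 4T1, 1.19 in Cloudman S91 and was not listed in B16-F1. The tight junction genes Cldn3 (216) and Cldn4 (162) were high in 4T1, where Cldn4 was at least 877-fold above B16-F1 and at least 715-fold above Cloudman S91. Lsr, of tricellular junctions, had 79.4 in 4T1, 0.59 in Cloudman S91 and 0.11 in B16-F1. Cdh1, which encodes E-cadherin, had 83.8 in 4T1, 2.21 in Cloudman S91 (72 counts) and 0.20 in B16-F1 (8 counts), so Cloudman S91 lay 11.04-fold above B16-F1 (5.31 to 26.5). Jup, the junction protein plakoglobin, had the pattern of Klf5, with 20.2 in 4T1, 19.8 in Cloudman S91 and 0.53 in B16-F1, and this gene was singled out after its values were seen. The epithelial markers given above were high in the same library and share Cdh1, Epcam, Cldn4 and Cldn7 with this list, and their part in its difference was not tested.

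**Figure D4:**
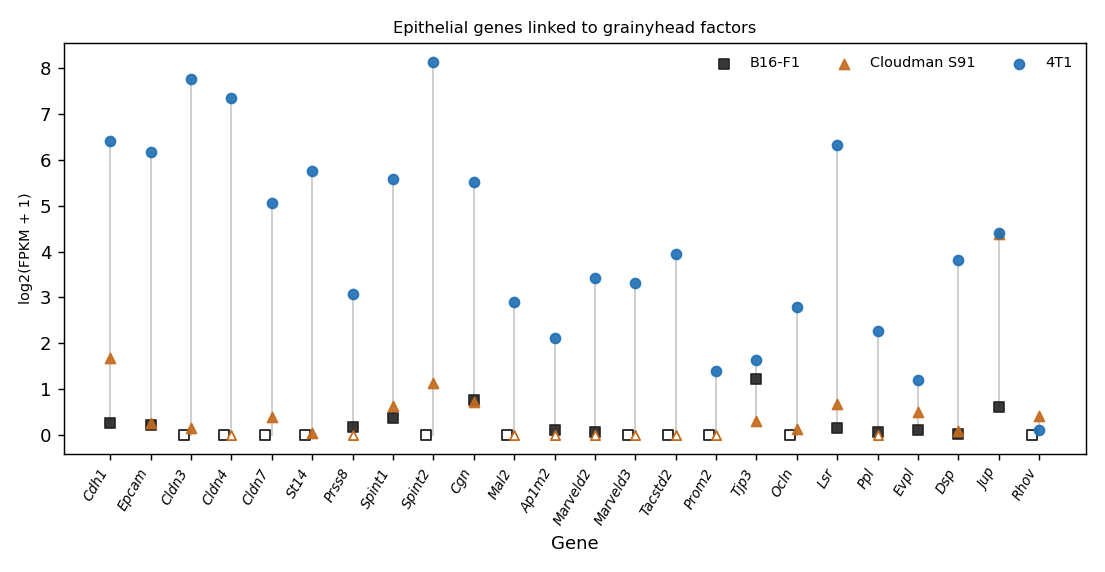
Levels in log2(FPKM + 1) (vertical axis) of 24 epithelial genes linked to grainyhead factors in B16-F1 (squares), Cloudman S91 (triangles) and 4T1 (circles), with open symbols for genes not listed. 4T1 is the highest for 23 of the 24, and Jup is as high in Cloudman S91.

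Of other epithelial transcription factors, Gata3, the luminal mammary factor, had FPKM 23.2 in 4T1, 0.17 in Cloudman S91 and 0.07 in B16-F1, and was called higher in 4T1 in both comparisons. Sox9 had FPKM 13.3 in 4T1, 3.16 in Cloudman S91 and 2.28 in B16-F1, and was called higher in 4T1 against B16-F1 only, with differences of 2.12 and 1.78 in log2(FPKM + 1).

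Factors that oppose the epithelial state were called in both directions. Of 13 genes, 3 were higher in 4T1 than in B16-F1 and 1 lower, and the counts against Cloudman S91 were again 3 and 1. Over all genes the shares higher and lower in 4T1 were 7.43% and 6.31% against B16-F1, and 8.01% and 7.47% against Cloudman S91. The median differences were 0.54 and 0.59. Zeb2, a repressor of epithelial genes that melanocytes also use, had FPKM 3.82 in 4T1, 24.5 in Cloudman S91 and 22.4 in B16-F1, a ratio of 5.87 (5.20 to 6.64) for B16-F1 over 4T1 and of 6.40 (5.66 to 7.25) for Cloudman S91 over 4T1. Zeb1 had 0.15 in B16-F1, 0.16 in 4T1 and 1.05 in Cloudman S91. B16-F1 and 4T1 had 8 counts each of Zeb1, and their ratio was 1.02 (0.333 to 3.11), so this repressor did not separate 4T1 from B16-F1 beyond counting error. Snai2 had 0.50 in 4T1, 2.19 in Cloudman S91 and 2.60 in B16-F1 and was not called.

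Twist1, a driver of mesenchymal transition, was high in the same library as the epithelial regulators, with FPKM 29.2 in 4T1 (418 counts), 0.42 in Cloudman S91 (5 counts) and 0.07 in B16-F1 (1 count). Foxc2 had 7.71 in 4T1 and 0.16 in B16-F1, and was not listed in Cloudman S91. Snai1 had 7.33 in 4T1, 1.11 in Cloudman S91 and was not listed in B16-F1, and was called against B16-F1. Tcf4 had 11.9 in 4T1, 5.05 in B16-F1 and 0.42 in Cloudman S91, and was called against Cloudman S91. These are levels of bulk libraries, in which epithelial and mesenchymal factors in the same cell and in different cells cannot be told apart.

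**Figure D5:**
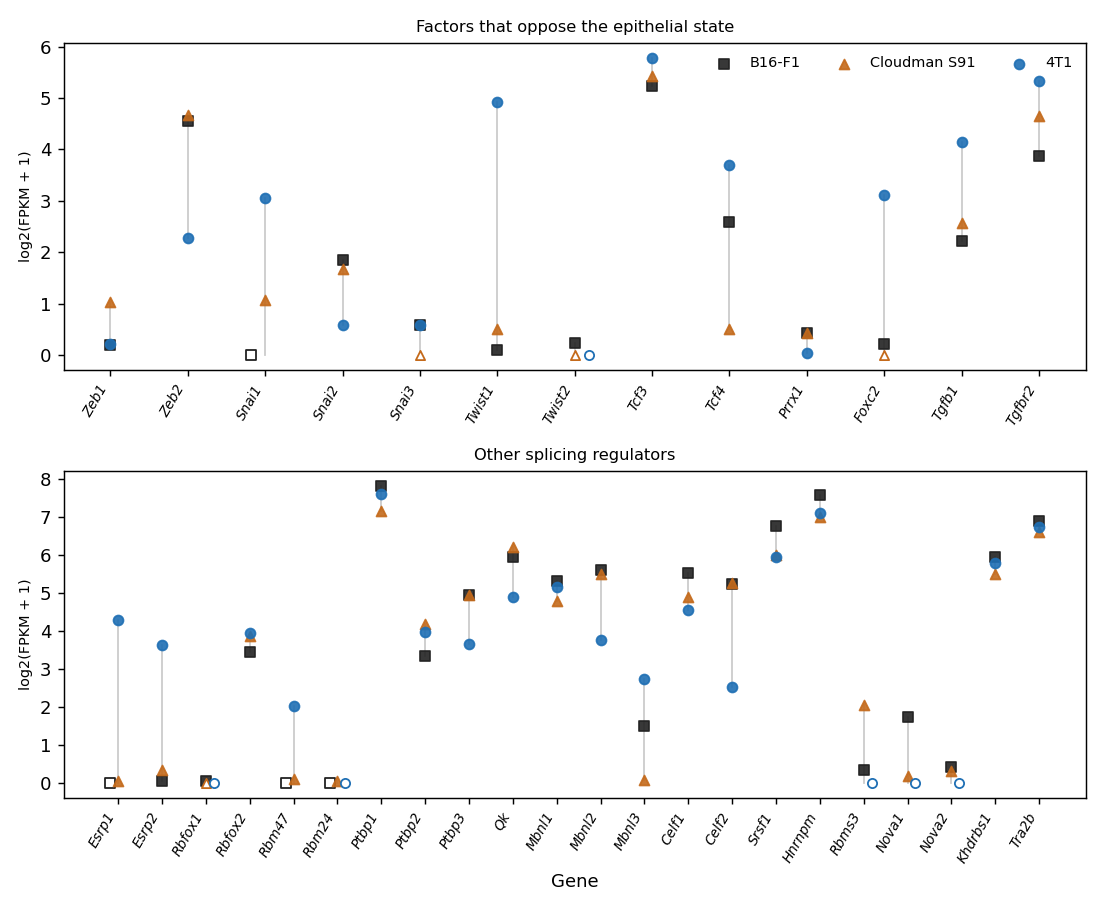
Levels in log2(FPKM + 1) (vertical axis) of factors that oppose the epithelial state (upper panel) and of Esrp1 and Esrp2 with other splicing regulators (lower panel) in B16-F1 (squares), Cloudman S91 (triangles) and 4T1 (circles), with open symbols for genes not listed. Zeb2 is lower and Twist1 higher in 4T1, and Esrp1, Esrp2 and Rbm47 are near 0 in both melanoma lines.

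Among 20 other regulators of splicing, 1 was higher and 1 lower in 4T1 than in B16-F1, and 1 was higher and 2 lower in 4T1 than in Cloudman S91, with median differences of -0.28 and -0.05. Calls in either direction, 2 and 3 of 20, lie near the shares over all genes, 13.7% and 15.5%. Rbm47, an RNA-binding protein of epithelial cells, had the pattern of the ESRP genes at a lower level, with FPKM 3.05 in 4T1 (132 counts), 0.06 in Cloudman S91 (2 counts) and none listed in B16-F1. Celf2 had 4.76 in 4T1, 37.5 in Cloudman S91 and 36.7 in B16-F1, and was the gene called lower in 4T1 in both comparisons. Mbnl3 had 5.58 in 4T1, 1.82 in B16-F1 and 0.05 in Cloudman S91. Rbms3 had 3.16 in Cloudman S91, 0.25 in B16-F1 and was not listed in 4T1.

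For genes whose exons are known to be spliced by ESRP proteins, the tables give gene levels and no exon usage. All 22 were listed in every table, of which 20 reached FPKM 1 in 4T1, as did 14 in Cloudman S91 and 18 in B16-F1. Against B16-F1, 1 was higher in 4T1 (Lsr) and 1 lower (Enah), and against Cloudman S91, 3 were higher in 4T1 (Lsr, Osbpl3 and Magi1). The shares of all genes higher in 4T1 were 7.43% and 8.01%, and those lower were 6.31% and 7.47%. With a list of this size, the counts are not read as differing from these shares. The median differences were 0.22 and 0.32. This list includes the member Grhl1, and Lsr is also among the genes linked to grainyhead factors. Cd44 was most abundant in B16-F1 at 101, with 46.5 for Cloudman S91 and 47.6 for 4T1. Fgfr2 had 1.89 in 4T1 (87 counts) and 0.16 in each melanoma line (7 and 6 counts), and was not called. Enah, an actin regulator, had 17.4 in B16-F1, 2.99 in 4T1 and 0.19 in Cloudman S91.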

How the data were processed

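RNA was sequenced from 3 cell lines, with 1 library each. Reads were filtered and processed by BGI, per the series' design text, and the submitters' processing notes name HISAT, StringTie and build mm10. The counting program and its strand setting are not given in the sources used here. Each table, as deposited, holds expected counts per gene, FPKM and a length in bases, per the file headers. All 23 listed expected counts of the members were whole (within 0.005). Exons of 6 members overlap a gene on the opposite strand in GENCODE M21 (Esrp1, Esrp2, Grhl2, Ovol1, Ovol2 and Elf3). Reads in the shared bases cannot be told apart without strand. The longest single overlap was 690 of 3488 exonic bases, in Ovol1.

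Genes missing from a table were taken as 0, and folds against it use 3 counts per library. Such folds, given as at least a value, take the higher level as listed and leave out its counting error. The FPKM of 1 count was computed from the library total and the listed length less 46.4 to 62.6 bases, the median offset in genes over 500 counts. Intervals are exact 95% Poisson intervals, and conditional binomial ones for ratios, and cover counting error only. They were computed from rounded expected counts with SciPy 1.17.1 in Python 3.11.15. Positions and promoters are from RefSeq GRCm38.p6, which has the primary sequence of mm10. Rows without a symbol (2.24% to 4.32% of counts) were left out. The size rule was run on simulated data first. Named genes are the 10 members, up to 4 genes per list with the largest difference, a few fixed factors, and the 5 genes nearest to the members' median profile. Members and lists were chosen with earlier results of these data known. Protein sequences were not used here. A result on another epithelial transcription factor, and the counts that include it, are not reported here.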

Additional observations from a re-analysis of the deposited data

How the results depend on the processing

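No paired analysis was possible because each line has 1 library. No setting reversed a called value. Of the counts of called members, only those with a pseudocount of 5 moved by more than 1.5 times, to 2 for 4T1 against B16-F1, 2 for 4T1 against Cloudman S91 and 0 for B16-F1 against Cloudman S91. A larger pseudocount compresses low levels by construction. The median difference of the members for 4T1 minus B16-F1 was 5.44 with a pseudocount of 0.1, 1.39 with 5, 3.68 with an FPKM minimum of 5 (fewer members), 3.74 in TPM and 4.01 in CPM. For 4T1 minus Cloudman S91 these were 4.49, 0.87, 3.33, 2.62 and 3.0. For B16-F1 minus Cloudman S91 the median was -0.48 with a pseudocount of 0.1 and -3.52 with an FPKM minimum of 5, where only Klf5 was left. TPM moved the median of all genes compared to -0.38 for 4T1 minus B16-F1 and -0.31 for 4T1 minus Cloudman S91, and upper-quartile scaling moved them to -0.12 and -0.14. Over all genes compared, calls in either direction were 22.0% with a pseudocount of 0.1, 6.07% with 5, 37.4% under the 2-fold rule and 6.99% under the 8-fold rule for 4T1 against B16-F1 (13.7% as reported). Against Cloudman S91 they were 23.8%, 6.24%, 40.6% and 7.56% (15.5%), and between the melanoma lines 10.8%, 1.55%, 20% and 2.29% (5.52%). TPM also called Ovol2, and CPM also called Ovol1, higher in 4T1 in both comparisons. Under the 8-fold rule Grhl2 was no longer called. Single members moved beyond their counting interval in 33, 29 and 12 of 70 recomputed values per comparison, in the order used here. Depth limits Ehf in every line, and Grhl1 and Ovol2 in 4T1 (20 counts each). It also limits all melanoma levels except that of Klf5 in Cloudman S91, and those levels rest on 12 counts or fewer.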

Other observations

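Over the 3 lines, the genes whose log2(FPKM + 1) profile lay closest to the median profile of the members were Zmynd15, Nptx1, Fgd3, Ttc9 and Dsg2, at Euclidean distances of 0.08 to 0.12, among 14789 named genes searched. Dsg2, a desmosomal cadherin, had FPKM 8.45 in 4T1, 0.02 in Cloudman S91 and was not listed in B16-F1. With 3 lines, many genes can share such a profile.

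Keratinocyte markers were sparse in 4T1. Of 8 such genes, Krt14 (FPKM 20.7) and Krt10 (3.79) were listed there, while Krt5, Krt1, Ivl, Lor, Trp63 and Dsg3 were not. The sum of the list was 24.4 in 4T1, 0.30 in B16-F1 and 0.28 in Cloudman S91. Fibroblast markers summed to 1.21 in 4T1, 3.88 in B16-F1 and 22.3 in Cloudman S91, where Pdgfra (15.6) made up most of the sum.

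The listed length of a gene can change with the transcripts a table holds. Among the 22 genes with exons spliced by ESRP proteins, it differed by more than a ratio of 1.2 between 4T1 and B16-F1 for 1 gene (Epb41l5), beside 6.0% of all genes in both tables, and between 4T1 and Cloudman S91 for 2 genes (Epb41l5 and Numb), beside 6.13%. For the members listed in both tables the largest such ratio was 1.07. The 4T1 table lists assembled transcripts, whose identifiers carry the name of BGI, beside the RefSeq ones for Esrp1 (2) and Grhl2 (1).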
